A study of Caenorhabditis elegans with 2 samples.

Results

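The gene set examined here comprised the heat shock proteins and J-domain cochaperones of Caenorhabditis elegans: every protein-coding gene that the Ensembl annotation of WBcel235 names hsp- or dnj- with a number, together with sip-1, hsf-1, sti-1 and cdc-37. These were 55 of 19973 protein-coding genes on the nuclear chromosomes, with 29 dnj and 22 hsp genes among them. The rule also asked for daf-21, which the annotation does not list under that name. In worm literature daf-21 is the older name of hsp-90, which was included. Binding of eGFP-tagged CEH-82, a homeodomain protein, was measured in mixed-sex whole L1 larvae by ChIP-seq, which sequences the DNA that is pulled down with a protein. All libraries came from strain OP212, which carries the unc-119(ed3) III mutation and the ddEx58 transgene, a name that by worm nomenclature marks an extrachromosomal array. The sample labels instead describe an insertion targeting ceh-82, and how the tagged gene is carried was not examined. There were 2 biological replicates in 1 group, both called by the authors against the same control alignment. The labels name no heat shock or other stress, and no untagged strain, other stage or expression measurement was analysed here.

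Heat shock proteins are molecular chaperones: HSP70 proteins bind unfolded segments of other proteins in an ATP-driven cycle, J-domain proteins deliver those clients and switch on the ATPase, and exchange factors such as HSP110 release the nucleotide. HSP90 acts on nearly folded clients with cochaperones such as STI-1 and CDC-37, chaperonins fold proteins in a closed chamber, and small heat shock proteins hold denatured proteins without ATP. Some of these genes serve growing cells at all times, whereas others, such as the hsp-16 family and hsp-70, are switched on by the heat shock factor HSF-1, which binds alternating GAA and TTC units in their promoters.

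A gene was called bound when the summit of a peak in the authors' optimal list lay from 1000 bp upstream to 200 bp downstream of an annotated 5′ end of one of its transcripts. Positions below are relative to such a 5′ end. The optimal list held 3913 peaks with signal values from 27.6 to 595, where the signal is the peak height given by the authors' caller and rank 1 is the strongest peak. Sequencing depth per library is unknown, because peak lists hold no counts of reads.

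The sequences below set windows at bound genes beside the regions between divergent hsp-16 starts. For each role group the window of 101 bases around the summit of its strongest bound member is shown (hsp-110 stands for the HSP70 and HSP110 group), with the summit at base 51, followed by 300 bases centred midway between the divergent starts of each hsp-16 gene pair. The starts are 220 bp apart at hsp-16.2 and hsp-16.41, so that stretch reaches into both genes, and 348 bp apart at hsp-16.1 and hsp-16.48, so that stretch ends short of both starts. They are read 5′ to 3′ from the RefSeq genome of WBcel235 (ce11), on the strand given. Capitals mark matches to GAANNTTC, TTCNNGAA or GAGAGA on either strand.
hsp-110 (chrIII:8447121-8447221, minus strand): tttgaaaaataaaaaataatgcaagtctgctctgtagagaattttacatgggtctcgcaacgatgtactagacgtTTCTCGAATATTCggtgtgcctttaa
hsp-90 (chrV:14685733-14685833, plus strand): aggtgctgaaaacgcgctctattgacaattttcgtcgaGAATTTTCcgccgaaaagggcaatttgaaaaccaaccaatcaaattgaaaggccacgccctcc
hsp-60 (chrIII:1619083-1619183, plus strand): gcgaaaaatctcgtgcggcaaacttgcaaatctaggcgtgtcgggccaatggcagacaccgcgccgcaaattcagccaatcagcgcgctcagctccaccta
dnj-13 (chrII:11545431-11545531, plus strand): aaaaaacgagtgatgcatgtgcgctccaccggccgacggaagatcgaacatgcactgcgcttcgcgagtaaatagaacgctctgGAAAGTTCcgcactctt
sti-1 (chrV:773387-773487, plus strand): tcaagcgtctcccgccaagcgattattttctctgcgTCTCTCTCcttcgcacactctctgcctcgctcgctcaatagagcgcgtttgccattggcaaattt
sip-1 (chrIII:10507003-10507103, minus strand): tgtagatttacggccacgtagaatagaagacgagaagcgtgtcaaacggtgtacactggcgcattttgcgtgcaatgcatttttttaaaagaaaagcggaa
hsp-16.2 to hsp-16.41 (chrV:1804918-1805217, plus strand): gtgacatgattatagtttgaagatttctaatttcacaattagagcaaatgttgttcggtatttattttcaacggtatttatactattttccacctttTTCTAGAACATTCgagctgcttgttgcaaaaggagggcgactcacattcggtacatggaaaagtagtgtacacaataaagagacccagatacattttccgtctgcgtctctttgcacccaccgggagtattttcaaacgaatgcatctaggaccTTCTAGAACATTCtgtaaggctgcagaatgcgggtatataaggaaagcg
hsp-16.1 to hsp-16.48 (chrV:9087807-9088106, plus strand): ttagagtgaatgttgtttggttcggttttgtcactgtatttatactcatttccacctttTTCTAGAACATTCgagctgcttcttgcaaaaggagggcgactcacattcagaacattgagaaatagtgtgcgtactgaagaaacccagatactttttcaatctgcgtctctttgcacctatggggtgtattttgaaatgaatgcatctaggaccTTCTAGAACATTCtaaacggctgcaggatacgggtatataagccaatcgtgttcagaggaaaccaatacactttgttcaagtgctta
The pair hsp-16.2 and hsp-16.41 had an optimal peak, with its summit at base 203 of the region shown, and the pair hsp-16.1 and hsp-16.48 had none. The hsp-16.1 and hsp-16.48 region lies in an identical inverted repeat, where reads cannot be placed at a single copy. The part of this in the missing peak was not tested. Both regions hold the same 13 capital letters at a pair of places, that is, 3 alternating units with 2 bases between units.

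Promoters of 29 of the 55 genes held an optimal CEH-82 summit, which is 52.7% (exact Clopper-Pearson 95% interval 38.8% to 66.4%, counting error only), beside 16.03% of all protein-coding genes. In the equally long top list of replicate 1, 29 were bound, beside 15.96% of all genes, and in that of replicate 2, 28 were bound, beside 15.7% of all genes. The share over the replicates was 51.8% ± 1.29 (SD, n = 2). The 29 genes were served by 28 distinct peaks, because hsp-16.2 and hsp-16.41 share one. The 11 genes named hsp-12, hsp-16 or hsp-70, taken as the stress-induced set, had 2 bound genes (18.2%, interval 2.28% to 51.8%). The other 44 genes, taken as the constitutive set, had 27 bound (61.4%, interval 45.5% to 75.6%). Each replicate's top list gave 2 for the stress-induced set, and the constitutive set had 60.2% ± 1.61 (SD, n = 2). The stress-induced share thus stood near that of all genes and the constitutive share far above it. The intervals of the sets overlap, however, and no test of the difference was made. Of the stress-induced genes, 4 lie in an identical repeat where reads cannot be placed at a single copy, as given below. With the hsp-16 family and hsp-70 alone taken as stress-induced, 2 of 7 were bound, beside 27 of 48 other members. The names are only a rough guide to inducibility: of the constitutive set, hsp-4 is induced by stress in the endoplasmic reticulum and hsp-6 and hsp-60 by mitochondrial stress, and the hsp-12 genes are not known as strongly heat-induced.

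**Figure D1:**
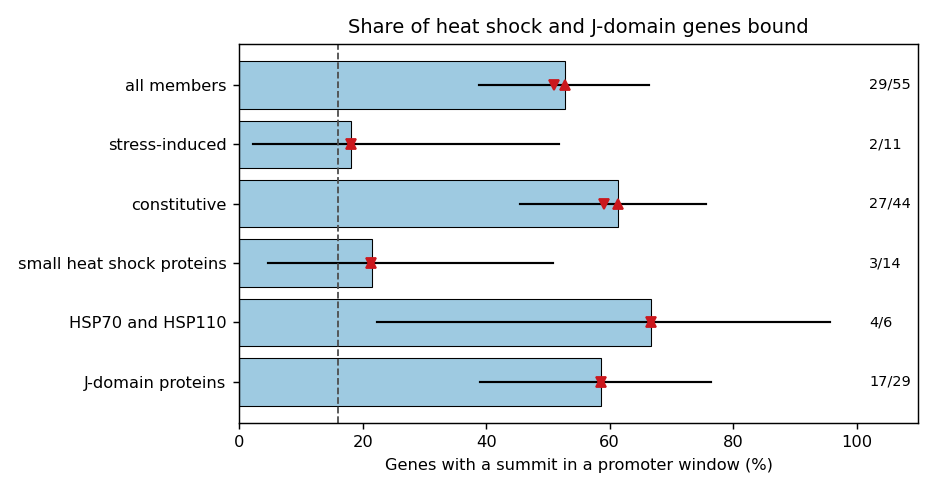
Bars show the percentage of genes with an optimal summit in a promoter window, lines the exact 95% interval, red triangles pointing up and down the top lists of replicates 1 and 2, and the dashed line all protein-coding genes (16.03%). Stress-induced genes stood at 2 of 11 and small heat shock proteins at 3 of 14, whereas constitutive genes stood at 27 of 44 and J-domain proteins at 17 of 29.

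The bound genes lay high in the ranking of peaks. Their median optimal signal was 126 (binomial 95% interval 52.6 to 168, n = 29 genes), against 63.8 over the 3201 bound protein-coding genes, and 15 of the 29 exceeded 103, the upper quartile of all bound genes. That interval treats genes as separate draws, although hsp-16.2 and hsp-16.41 share a peak, and does not measure the spread between replicates. Signals ran from 30.1 at hsf-1 to 313 at hsp-110, in a list that reaches 595. The median was 73.2 with 50% reciprocal overlap in both replicates (20 genes) and 78.4 with each summit given to the nearest start alone (17 genes). Of the 29, 15 ranked within the first 500 of the 3913 optimal peaks and 13 ranked within the first 500 in each replicate. The matching share of all bound genes is not given here.

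**Figure D2:**
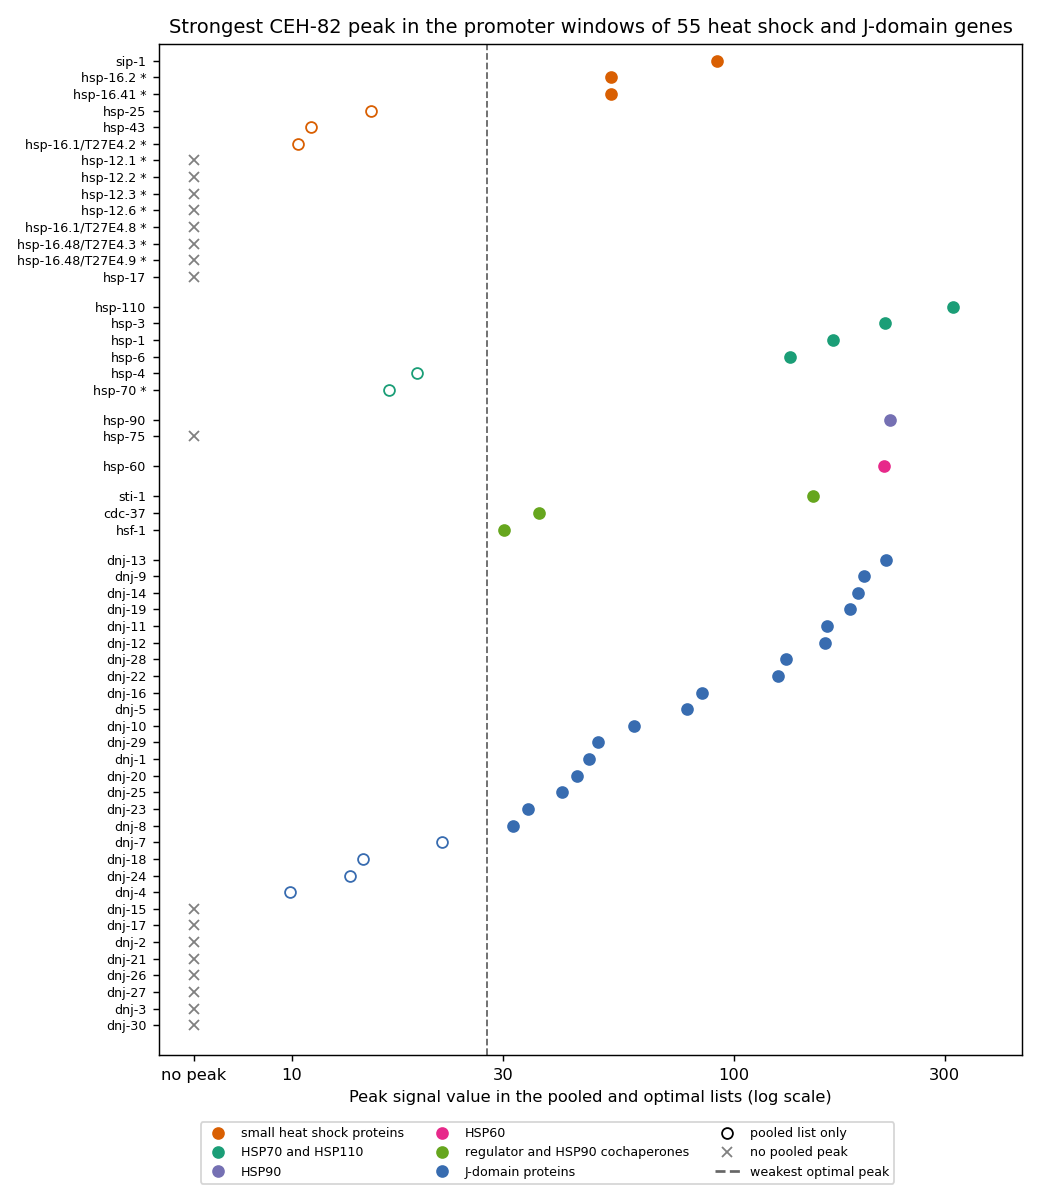
Each row is one of the 55 genes and the horizontal axis is the signal of its strongest peak on a log scale; filled points are optimal peaks, open points occur in the pooled list alone, crosses have no pooled peak, and stars mark the stress-induced set. Among small heat shock proteins 11 of 14 genes lie left of the dashed line, the weakest optimal peak, whereas 4 of 6 HSP70 and HSP110 genes exceed a signal of 130.

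Among HSP70 and HSP110 genes 4 of 6 were bound (66.7%, interval 22.3% to 95.7%), beside 16.03% of all genes, each with a signal of at least 134. The strongest peak of the whole set was at hsp-110, which encodes the nucleotide exchange factor. Its signal was 313 (rank 36) in the optimal list, 181 (rank 42) in replicate 1 and 127 (rank 34) in replicate 2, with the summit 262 bp upstream. The summit lies 182 bp upstream of rpn-3, a proteasome subunit gene on the opposite strand, so hsp-110 is not the nearest start. Next came hsp-3, which encodes a BiP-type HSP70 of the endoplasmic reticulum. Its signal was 220 (rank 104), with 130 (rank 115) in replicate 1 and 93.3 (rank 89) in replicate 2, and its summit 54 bp upstream lay in no other gene's window. The cytosolic HSP70 gene hsp-1 had a signal of 168 (rank 240), ranked 273 in replicate 1 and 204 in replicate 2, at 361 bp upstream and in no other gene's window. The mitochondrial HSP70 gene hsp-6 had a signal of 134 (rank 419), ranked 468 and 490 in the replicates. Its summit lay 422 bp upstream of hsp-6 and 178 bp upstream of C37H5.5. The HSP70 genes expressed without stress in the cytosol, endoplasmic reticulum and mitochondria thus each had a peak within the first 500.

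The unbound genes of this group were hsp-4 and hsp-70, both known to be inducible. Inducible HSP70 genes were also among the bound ones: hsp-6, and outside this set the pair F44E5.4 and F44E5.5, given below. The paralogue of hsp-3 in the endoplasmic reticulum, hsp-4, had only a weak pooled peak with a signal of 19.1 (rank 5536), at ranks 6432 and 8666 in the replicates and 47 bp downstream of its 5′ end. The heat-inducible hsp-70 had a pooled peak of 16.54 (rank 6556), at ranks 6910 and 11454 in the replicates, 109 bp upstream. The weakest optimal peak has a signal of 27.6 on the same scale as the pooled list, so both lie below it.

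Of the HSP90 genes, hsp-90, the cytosolic form, had a signal of 226 (rank 97), with 136 (rank 105) in replicate 1 and 89.0 (rank 98) in replicate 2. The gene has a pair of annotated 5′ ends. The summit lies 377 bp upstream of the internal one and within the longer transcript, and 298 bp upstream of C47E8.4 on the opposite strand. The mitochondrial type, hsp-75, had no peak in any list. The mitochondrial chaperonin gene hsp-60 had a signal of 219 (rank 106), at ranks 96 and 141 in the replicates. That summit lies 609 bp upstream of hsp-60 and 204 bp upstream of Y22D7AL.10, so it too is nearer to a neighbour. The strong peaks of hsp-110, hsp-90 and hsp-60 are therefore shared with another gene, whereas those of hsp-3 and hsp-1 are not.

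The regulator and the HSP90 cochaperones were bound in all 3 cases but at very unequal signal. The gene sti-1, whose product links HSP70 to HSP90, had a signal of 151 (rank 318), with 83.2 (rank 416) in replicate 1 and 66.9 (rank 235) in replicate 2. Its summit lay 81 bp upstream and in no other window. The kinase cochaperone gene cdc-37 had a signal of 36.2 (rank 3055), at ranks 3100 and 3110 in the replicates. The summit lies within the gene, 447 bp upstream of an internal 5′ end and 209 bp downstream of another, and 263 bp upstream of W08F4.3. The gene of the heat shock factor itself, hsf-1, had a signal of 30.1 (rank 3633), the lowest of the 29. It reached 22.2 (rank 3047) in replicate 1 and 7.53 (rank 6497) in replicate 2, and was outside the top list of replicate 2. The peak at hsf-1 thus stood in the top list of replicate 1 alone, and that at sti-1 within the first 500 in both replicates.

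Of the small heat shock protein genes, 3 of 14 were bound (21.4%, interval 4.66% to 50.8%), near the 16.03% of all genes. The gene sip-1, which encodes an embryonic small heat shock protein, had the strongest peak of them, with a signal of 91.8 (rank 899), 57.5 (rank 855) in replicate 1 and 33.2 (rank 1082) in replicate 2. That summit lies 252 bp upstream of sip-1 but 5 bp upstream of sly-1 on the opposite strand. The divergent genes hsp-16.2 and hsp-16.41 share a peak with a signal of 52.6 (rank 2113), 28.9 (rank 2330) in replicate 1 and 21.5 (rank 2018) in replicate 2. Its summit lies 163 bp upstream of hsp-16.2 and 58 bp upstream of hsp-16.41. This is below the median of all bound genes, 63.8, and it is the one optimal peak of the stress-induced set.

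None of the other hsp-16 genes had an optimal peak. In the annotation the name hsp-16.1 covers 2 genes, T27E4.8 and T27E4.2, and hsp-16.48 covers T27E4.3 and T27E4.9. T27E4.2 had a pooled peak of 10.3 (rank 14171), 982 bp upstream, and the others had no peak in any list. These 4 genes form an inverted repeat. A segment of 1325 bp with a gene pair matched the reversed other copy at 1325 of 1325 bases, so reads from it cannot be placed at a single copy. How the authors treated such reads is not given in the sources used here, and the part of this in the missing peaks was not tested. Counting the repeat once left 2 of 9 stress-induced genes bound. Of the hsp-12 genes, hsp-12.1, hsp-12.2 and hsp-12.3 had no peak in any list, and hsp-12.6 had a peak in replicate 2 alone, with a signal of 3.28 (rank 26787). Of the small heat shock genes outside the stress-induced set, hsp-25 and hsp-43 had pooled peaks of 15.1 and 11.0, and hsp-17 had none.

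A heat-inducible HSP70 pair that bears no hsp name, F44E5.4 and F44E5.5, was bound. These divergent genes share a peak with a signal of 77.9 (rank 1217), 53.4 (rank 985) in replicate 1 and 22.3 (rank 1924) in replicate 2. The signal is higher than that of the peak between hsp-16.2 and hsp-16.41 in the same list.

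**Figure D3:**
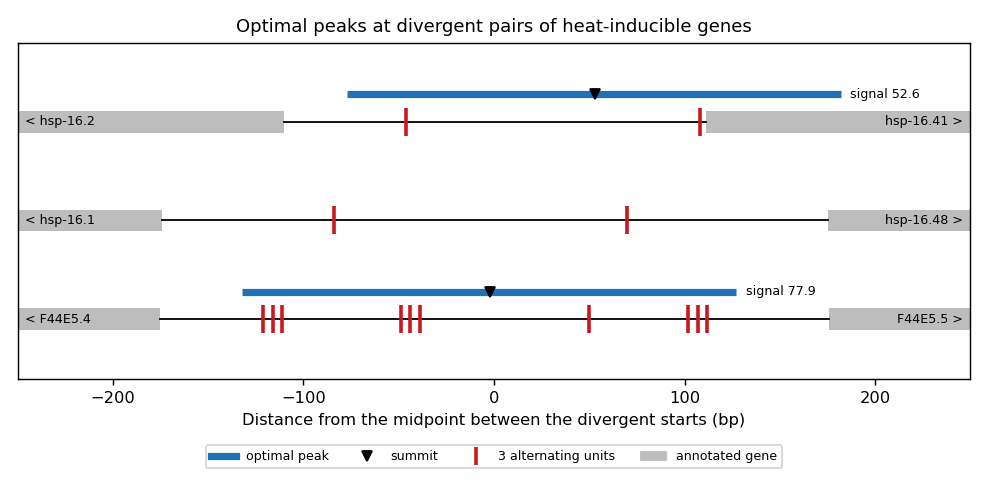
The horizontal axis is the distance in bp from the midpoint between divergent starts; grey boxes are annotated genes, blue bars optimal peaks, black triangles summits and red ticks the centres of 3 alternating GAA and TTC units. The peaks between hsp-16.2 and hsp-16.41 (signal 52.6) and between F44E5.4 and F44E5.5 (signal 77.9) cover the middle of the gap between the starts. The region between hsp-16.1 and hsp-16.48 (the first copy) has matches but no optimal peak. It lies in the inverted repeat, where reads cannot be placed at a single copy.

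The J-domain genes were bound in 17 of 29 cases (58.6%, interval 38.9% to 76.5%), beside 16.03% of all genes. The top list of each replicate also held 17, beside 15.96% and 15.7% of all genes, and the median optimal signal was 84.5. The strongest peak was at dnj-13, a cytosolic J-domain protein that partners HSP70 in disaggregation. Its signal was 221 (rank 103), with 138 (rank 100) in replicate 1 and 86.6 (rank 117) in replicate 2, at 220 bp upstream and within the body of dhgd-1. Next were dnj-9 with a signal of 197 (rank 150) at 241 bp upstream, and dnj-14, whose human counterpart is the cysteine string protein of synaptic vesicles, with 191 (rank 163) at 311 bp upstream. The cytosolic HSP70 partners dnj-19 and dnj-12 had signals of 183 (rank 190) and 161 (rank 268), and dnj-11, whose human counterpart sits on ribosomes, had 162 (rank 264). The summit at dnj-19 lies 385 bp upstream of it but 11 bp upstream of nhr-47, a nuclear receptor gene. The summits at dnj-14 and dnj-11 are also nearer to a neighbour, 220 bp upstream of glit-1 and 209 bp upstream of F38A5.2. That at dnj-22 lies 175 bp upstream of it but 64 bp upstream of natc-1. The group of 8 strong J-domain peaks ended with dnj-28 at 131 (rank 440) and dnj-22 at 126 (rank 485).

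The other J-domain genes had lower signals or no optimal peak. The mitochondrial dnj-10 had a signal of 59.4 (rank 1806). In the endoplasmic reticulum dnj-29, the SEC63-type partner of the translocon, had 49.2 (rank 2283) and the lumenal dnj-20 had 44.2 (rank 2538). The import motor subunit gene dnj-21 and the disulfide reductase gene dnj-27 of the endoplasmic reticulum had no peak in any list. The auxilin gene dnj-25, which uncoats clathrin vesicles, had 40.8 (rank 2732). The remaining bound genes were dnj-16 (signal 84.5), dnj-5 (78.4, at 804 bp upstream the most distant summit), dnj-1 (47.1), dnj-23 (34.2) and dnj-8 (31.7). The summits at dnj-16 and dnj-20, like those at hsp-90 and cdc-37, lie inside the annotated gene, upstream of an internal 5′ end. With a single window at the outermost start of each gene these 4 drop out, leaving 25 of 55, beside 14.9% of all genes.

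Just inside the boundary of the optimal list stood hsf-1 (signal 30.1), dnj-8 (31.7) and dnj-23 (34.2). Just outside it, in the pooled list, stood dnj-7, whose human counterpart inhibits a stress kinase, with 21.9 (rank 4861), hsp-4 with 19.1 and hsp-70 with 16.54. Of these, dnj-7 was in the top list of replicate 2 (rank 3668) but not of replicate 1 (rank 5876). When every pooled peak was counted, 38 of the 55 genes had one, beside 33.7% of all genes. The pooled list is labelled by the authors as peaks and background. Of the 26 unbound genes, 9 had a pooled peak (34.6%), beside 21.05% of unbound genes in general. A further 4, hsp-12.6, dnj-2, dnj-17 and dnj-30, had a peak in a single replicate, and 13 had no peak in any list. These 13 were hsp-12.1, hsp-12.2, hsp-12.3, one hsp-16.1 and both hsp-16.48 genes, hsp-17, hsp-75, dnj-3, dnj-15, dnj-21, dnj-26 and dnj-27.

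The replicates ranked the bound genes in a similar order. All 29 had a peak in both full lists, 27 were in both top lists, and dnj-8 and hsf-1 were in that of replicate 1 alone. Spearman's rho between the replicates' signals was 0.908 over the 29 genes and 0.828 over 3190 bound genes, given as a description, since peaks of a library share its depth and both libraries share the control. The largest rank differences among strongly bound genes were at dnj-11, at 440 in replicate 1 and 145 in replicate 2, and at dnj-28, at 343 and 781.

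**Figure D4:**
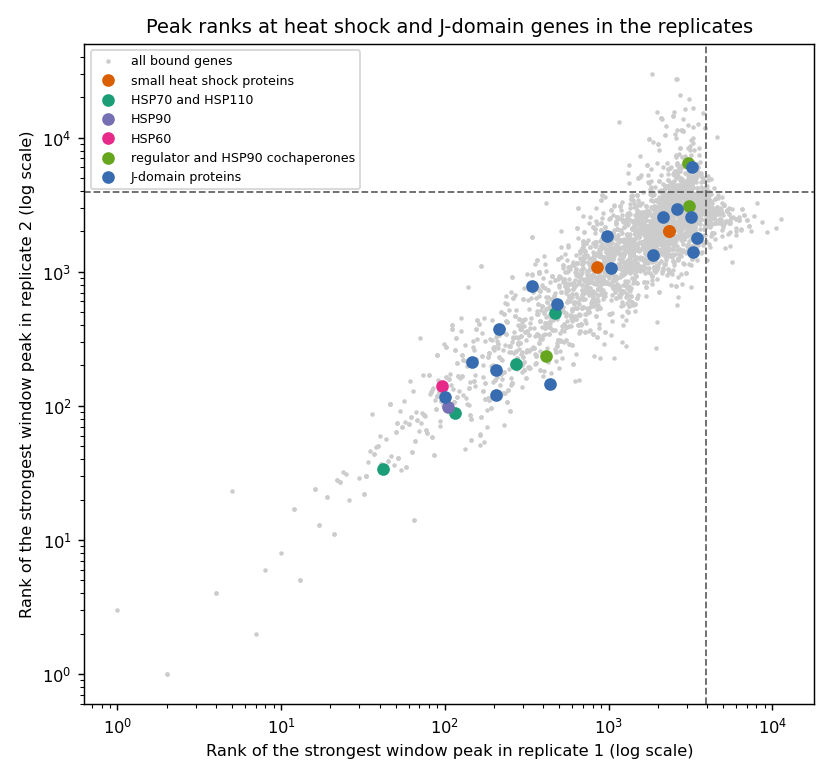
Ranks of the strongest window peak in replicate 1 (horizontal) and replicate 2 (vertical), both on log scales, for all bound genes (grey) and for the 29 bound members (coloured by role); dashed lines mark the end of the top lists. The point for hsp-110 is the strongest member in both replicates, and hsf-1 and dnj-8 lie above the horizontal line.

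Measured to a 5′ end whose window holds the summit, the bound members had a median position of -241 bp (quartiles -361 and -111). That was close to the median of -227 bp over all bound genes. On this measure all 29 were upstream, beside 95.7% of all bound genes. The cdc-37 summit is 209 bp downstream of a nearer 5′ end, whose window it misses. Within 200 bp lay 13 of the 29 (44.8%), beside 45.1% of all bound genes. The strongest peak lay also in the window of another gene for 18 of 29 (62.1%), beside 51.1% of all bound genes. Each of these 18 had a neighbour on the opposite strand. The matching count over all bound genes was not made, so this is not read as a trait of the set. The gene of this set was the nearest start in 17 of 29 cases (58.6%), beside 73.7% of all bound genes. With each summit given to the nearest start alone, 17 of 55 were bound, beside 11.9% of all genes. Under that rule 12 dropped out: hsp-110, hsp-90, hsp-60, hsp-6, sip-1, hsp-16.2, cdc-37, dnj-11, dnj-14, dnj-19, dnj-22 and dnj-23. These lists do not show which gene a shared peak acts on.

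**Figure D5:**
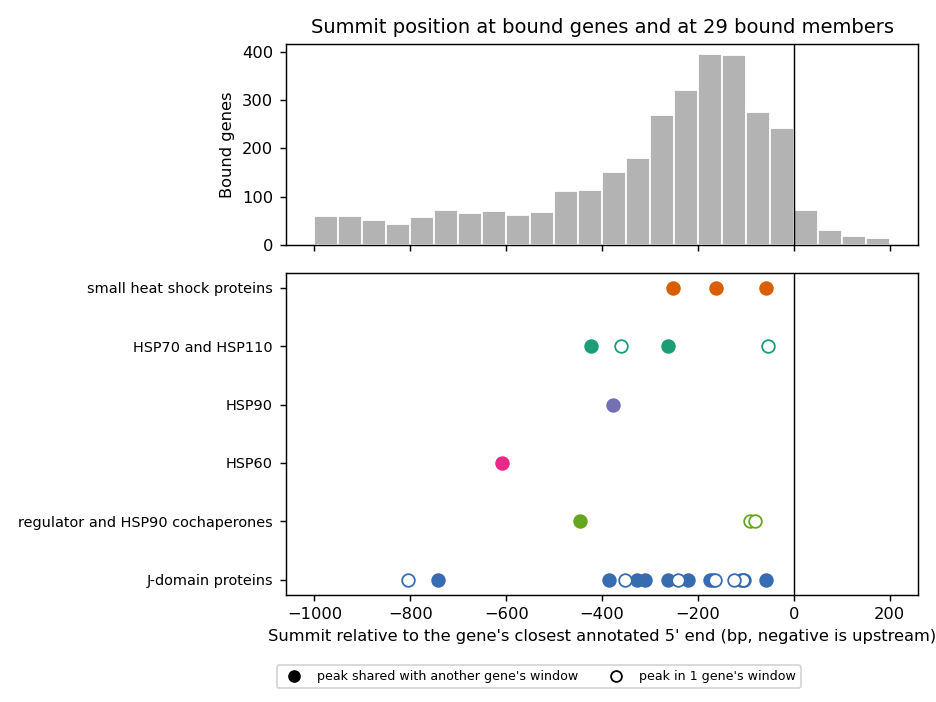
The upper panel counts all bound genes in bins of 50 bp by the summit of their strongest peak relative to an annotated 5′ end whose window holds it; the lower panel shows the 29 bound members by role, filled where the peak also lies in another gene's window. All 29 lie upstream of that 5′ end (vertical line), from 54 bp at hsp-3 to 804 bp at dnj-5. The cdc-37 summit lies 209 bp downstream of another, nearer 5′ end.

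The reach of the window mattered for few genes. With 500 bp upstream, 26 of 55 were bound, beside 13.1% of all genes, and the genes lost were hsp-60, dnj-5 and dnj-23. With 2000 bp, 29 were bound, beside 20.3% of all genes, so no gene was gained while the background rose. Among the 1956 strongest optimal peaks, 19 genes were bound, beside 9.41% of all genes. None of those 19 was stress-induced.

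Letters that resemble heat shock elements were sought within 100 bp of each summit, on either strand. GAANNTTC occurred at 10 of the 28 distinct peaks of the set (35.7%) and at 7.90% of all optimal peaks. TTCNNGAA occurred at 6 (21.4%) and at 7.54% of all. The stricter run of 3 alternating units, which contains both shorter motifs, occurred at 4 peaks (14.3%) and at 0.946% of all. These 4 were the peaks at hsp-110, hsp-60, dnj-12 and the hsp-16.2 and hsp-16.41 pair. At hsp-110 the run is the capital stretch of the window printed above. GAGAGA, a short purine repeat, occurred at 11 of the 28 peaks (39.3%), beside 47.5% of all optimal peaks, and the peak at hsf-1 held 7 overlapping or separate matches to it.

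In the promoters themselves, from 250 bases before to 50 after the start, 3 alternating units occurred in 11 of the 55 genes, beside 1.97% of all protein-coding promoters. The 3 alternating units were in 7 of the 11 stress-induced genes (63.6%), namely the 6 hsp-16 genes and hsp-70. They were in 4 of the 44 constitutive genes (9.09%), namely hsp-1, hsp-110, hsp-90 and dnj-12. The hsp-16 promoters are not separate sequences: divergent partners share the matches between their starts, and the hsp-16.1 and hsp-16.48 pairs are identical copies. The stress-induced share therefore counts the same letters more than once. Of the 11 genes with 3 alternating units, 6 were bound: the 4 constitutive ones, hsp-16.2 and hsp-16.41. This stands beside 29 of 55 for the whole set. The unbound ones were hsp-70 and the hsp-16.1 and hsp-16.48 genes. The hsp-16.1 and hsp-16.48 genes lie in the inverted repeat, where reads cannot be placed at a single copy. The match was in 7 of 11 stress-induced promoters and an optimal summit in 2 of 11. Among constitutive genes the match was in 4 of 44 and a summit in 27 of 44. The summit between hsp-16.2 and hsp-16.41 lay 55 bp from the closest match, and the summit between F44E5.4 and F44E5.5, a region with 10 overlapping or separate matches, lay 37 bp from one. A match is a description of the letters and does not show that HSF-1 or CEH-82 contacts them.

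Of 21 chaperone and cochaperone genes that carry other names, 14 were bound (66.7%, interval 43.03% to 85.4%), beside 16.03% of all genes, with 15 and 14 in the replicates' top lists and a median signal of 81.1. The exchange factor gene bag-1 had a signal of 230 (rank 90), the prefoldin subunit gene pfd-1 213 (rank 120), and enpl-1, the HSP90 of the endoplasmic reticulum, 147 (rank 342). Of the prefoldin genes pfd-1, pfd-3, pfd-5 and pfd-6 were bound and pfd-2 and pfd-4 were not. The HSP90 cochaperone genes fkb-6, unc-45 and daf-41 had signals of 112, 84.4 and 31.9, and hsb-1, whose product binds HSF-1, had 31.9. The ubiquitin ligase gene chn-1 and the phosphatase gene pph-5, both HSP90 partners, were not bound.

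Of a list of 13 stress-response genes, 10 were bound (76.9%, interval 46.2% to 94.96%), beside 16.03% of all genes. Each replicate's top list held 10, beside 15.96% and 15.7%. The list is mostly regulators but not all, as with the protease gene clpp-1. It includes hif-1 (signal 111), hlh-30 (97.9), daf-16 (75.3) and skn-1 (59.5), all bound. For the unfolded protein response of the endoplasmic reticulum, xbp-1 had a signal of 170 (rank 231), atf-6 had 157 (rank 283) and ire-1 had 55.9 (rank 1951), whereas pek-1 was not bound. For the mitochondrial response, the protease gene clpp-1 had 130 (rank 449), atfs-1 had 75.1 and ubl-5 had 37.6, whereas dve-1 and haf-1 were not bound. The signal at hsf-1, 30.1, was lower than at any of the 10 bound genes of this list.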

How the data were processed

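ChIP-seq peak lists from 2 biological replicates on ce11 were used; the ce10 lists were not used, because no genome of that build was at hand. Per the read-me files, the authors deposited 1 list per replicate, 1 called on pooled replicates against a shared control, and 1 optimal IDR-thresholded list derived from them. Each deposited peak has a signal value (the authors' peak height) and a −log10 q-value, which reaches a ceiling of 3.82 in the deposited optimal list, so peaks were ranked by signal. Signals were compared only within a list. The sources used here name no aligner, peak caller or IDR threshold, and no column of other samples was present.

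Summits were assigned to Ensembl release 115 genes by window with Python 3.11.15, pandas 2.3.3, scipy 1.17.1 and Biopython 1.88, tested on simulated data. A replicate's top list held its 3913 strongest peaks. The optimal, pooled and replicate lists come from the same libraries and are not independent. Genes are not replicates, so counts carry exact intervals for counting error only and no enrichment test was run. Whether the replicates came from separate cultures is not stated beyond the word biological, so their spread may be partly technical. Every member could be named, with full values for bound, stress-induced and boundary members. The members and lists were chosen with earlier results of these data known. Alternatives were other lists, overlaps, windows, assignments and groupings.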

Additional observations from a re-analysis of the deposited data

How the results depend on the processing

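Of 12 alternative settings for the number of genes bound, 10 kept it within 1.5 times the count of 29, from 20 to 38. The exceptions were 19 among the 1956 strongest optimal peaks and 17 with each summit given to the nearest start alone. The stress-induced count of 2 became 0, 4 and 1 among the 1956 strongest peaks, every pooled peak and nearest starts alone. With nearest starts alone the constitutive count was 16, and among the 1956 strongest peaks the J-domain count was 11. Leaving out each replicate gave 28 to 29 for all genes, 2 to 2 for stress-induced, 26 to 27 for constitutive and 17 to 17 for J-domain genes. Without cdc-37, 28 of 54 were bound. The median signal ranged from 73.2 to 162 under the alternatives. With nearest starts alone it was 78.4. The lowest value came with 50% reciprocal overlap in both replicates, which kept 20 genes and dropped hsp-1, hsp-3 and hsp-60. In the optimal list 11 of the 29 bound genes have peaks narrower than the usual 260 bp, beside 301 of all 3913 optimal peaks. Each of these 11 has a signal of at least 131. Of the 9 genes dropped under reciprocal overlap, all but dnj-8 and hsf-1 have such narrow peaks. The part of peak width in that loss was not tested. A single window per gene and counting the inverted hsp-16 copy once were chosen after seeing the data. No paired analysis was possible because there is 1 group. Depth is unknown, 2 replicates give little hold on the spread, and the smallest sets hold too few genes for their shares to be told apart.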

Other observations

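By chromosome, 7 of 8 genes of the set were bound on II, 8 of 14 on V, 5 of 10 on III, 4 of 10 on I, 3 of 8 on IV and 2 of 5 on X. Of all protein-coding genes, 14.5% on II, 10.1% on V, 24.5% on III, 22.97% on I, 15.2% on IV and 14.2% on X were bound. A pair of hsp-16 type genes that RefSeq names hsp-16.20 (F08H9.3) and hsp-16.21 (F08H9.4), and that the Ensembl annotation does not name hsp-, had no optimal peak. F08H9.4 had a pooled peak with a signal of 11.0 (rank 12484).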
